A study of Mus musculus with 4 samples.

Results

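The Olig and Bhlhe22 family of basic helix-loop-helix (bHLH) transcription factors comprises Olig1, Olig2, Olig3, Bhlhe22 and Bhlhe23 in the mouse, and its transcripts were examined in GFP+ cells sorted from E11.5 neural tubes of Prdm13 mutant embryos. The members were taken by gene symbol, and all 5 had a row among the 24421 genes of the deposited table. They were chosen because of how they differed between the same libraries, so their values are described with no p-value, and the calls given for them by the fit over all genes are part of that description. The 4 libraries fall into 2 genotypes: Het (GFP/+, heterozygous for the Prdm13 GFP allele, 2 libraries) and Homo (GFP/GFP, homozygous mutant, 2 libraries). In both genotypes GFP stands in the first exon of Prdm13, followed by a stop codon, so the Prdm13 gene itself drives the reporter used for sorting, and the Homo cells carry it on both copies. No wild-type cells were measured, and the Het cells serve as the control. RNA of several embryos was combined into 1 pool per genotype, and each pool was made into 2 libraries, which repeat the library step only, so every SD, SE and p-value below measures library preparation and sequencing and not the variation between embryos.

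bHLH factors pair with one another through the helix-loop-helix and bind DNA at E-boxes, written CANNTG, usually as partners of the widely expressed E proteins. Within the neural tube, Olig2 marks the ventral progenitors of motor neurons and later of oligodendrocytes, Olig1 is its chromosomal neighbour and acts in oligodendrocyte maturation, and Olig3 marks the dorsal-most progenitors that border the roof plate. Bhlhe22, also called Bhlhb5, is a repressor that works with Prdm8 in spinal interneurons, and Bhlhe23, also called Bhlhb4, is best known from rod bipolar cells of the retina. Prdm13 is a zinc finger factor of dorsal neural tube progenitors and is known to restrain the activity of neural bHLH factors.

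The family is defined by its shared DNA binding and pairing domain, and the stretch of 90 coding bases in which Olig1, Olig2, Olig3 and Bhlhe22 are most alike is given first to show how close they are. It is written 5′ to 3′ on the coding strand, from the GENCODE vM21 transcripts (GRCm38), with the 57 bases that these 4 genes share in capitals.
Olig1: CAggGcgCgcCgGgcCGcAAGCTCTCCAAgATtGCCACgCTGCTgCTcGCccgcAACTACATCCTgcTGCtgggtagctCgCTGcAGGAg
Olig2: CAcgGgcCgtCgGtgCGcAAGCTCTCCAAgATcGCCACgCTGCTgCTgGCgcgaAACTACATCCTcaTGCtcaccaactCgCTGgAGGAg
Olig3: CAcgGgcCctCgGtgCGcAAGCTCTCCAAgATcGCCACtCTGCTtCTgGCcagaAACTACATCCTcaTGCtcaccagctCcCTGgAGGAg
Bhlhe22: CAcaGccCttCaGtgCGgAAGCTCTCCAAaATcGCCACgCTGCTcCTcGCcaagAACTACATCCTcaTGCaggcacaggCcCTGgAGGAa
The stretch lies in the only coding exon of each of the 4 genes, at chr16:91270264-91270353, plus strand for Olig1, chr16:91226814-91226903, plus strand for Olig2, chr10:19356971-19357060, plus strand for Olig3 and chr3:18055526-18055615, plus strand for Bhlhe22. Olig2 and Olig3 were identical at 83 of the 90 bases, whereas Olig1 and Bhlhe22, the least alike, shared 63. Over the whole transcripts the longest run of bases shared without a break was 29, between Olig2 and Olig3, and 17 between Olig1 and Olig2. These 4 genes are therefore told apart over most of their length, although the handling of reads that map to several genes is not given in the sources used here. Olig1 overlaps the antisense gene Gm15966 at its 3′ end and Bhlhe23 overlaps Gm14343 on its own strand in GENCODE, and whether the counting used strand is not stated, so a share of their reads may belong to these neighbours.

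Of the promoter table from RefSeq (GRCm38.p6), 3 of the 5 members matched, Olig2, Olig3 and Bhlhe23, which are also the members that rose most, moved least and fell. The sequence before the first annotated exon is given 5′ to 3′ in the direction of transcription, within the 250 bases before the RefSeq start, with E-boxes (CANNTG, read on both strands, which is the same search since the letters read alike on either) in capitals.
Olig2: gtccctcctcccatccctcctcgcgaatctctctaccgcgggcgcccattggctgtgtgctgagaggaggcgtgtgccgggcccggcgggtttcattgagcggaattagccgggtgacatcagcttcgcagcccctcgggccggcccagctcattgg
Olig3: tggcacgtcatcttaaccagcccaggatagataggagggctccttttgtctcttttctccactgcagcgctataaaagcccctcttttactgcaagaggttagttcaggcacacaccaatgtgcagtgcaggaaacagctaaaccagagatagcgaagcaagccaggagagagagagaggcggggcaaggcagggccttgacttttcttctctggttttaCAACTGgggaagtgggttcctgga
Bhlhe23: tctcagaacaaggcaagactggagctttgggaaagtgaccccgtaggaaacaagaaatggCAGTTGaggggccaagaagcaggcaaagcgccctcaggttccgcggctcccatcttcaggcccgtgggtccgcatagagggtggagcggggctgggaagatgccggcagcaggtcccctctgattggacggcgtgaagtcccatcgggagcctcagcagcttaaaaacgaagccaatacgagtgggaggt
These stretches are chr16:91225300-91225456, plus strand for Olig2, chr10:19356289-19356532, plus strand for Olig3 and chr2:180776901-180777150, minus strand for Bhlhe23. The Olig3 and Bhlhe23 windows of 250 bases each held 1 E-box and the Olig2 window held 0, while 66.2% of 32851 mouse promoters of this length held at least 1. Neither CATATG nor CAGCTG, E-box forms contained in CANNTG and found in 3.46% and 13.0% of all these promoters, was present in any of the 3 windows. A match is a description of the letters and not of a bound site.

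Levels are given as RPKM (reads per kilobase of exon, per fixed number of mapped reads, scaled between libraries by the authors). The table kept enough digits to fit whole reads to 19183 of the 19200 genes above 0. Each fit also solves an exon length, and where that length is off the recovered reads are off with it. Of 17434 solved lengths with an annotated length, 71.6% lay within 5% of it. By the recovered reads, the libraries held 12296642 to 19548574 reads assigned to genes, with 11774 to 11831 genes at an RPKM of at least 1. Prdm13 itself was measured at 114 and 127 RPKM in Het and 310 and 324 RPKM in Homo, and since the transcript of the GFP allele can still give reads over the rest of the gene, this level is no check on the loss of the protein. The tissue label was met in both genotypes, with all 11 listed genes of the dorsal lineage above the filter, for example Pax3 at 70.0 to 75.2 RPKM.

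Olig2 and Olig1 were near 0 in Het and clearly present in Homo, Bhlhe22 was 2.81-fold higher in Homo, Bhlhe23 was lower by a factor of 1.53, and Olig3 was lower by a factor of only 1.15. A gene was tested if its mean RPKM reached 1 in either genotype, and called if the limma adjusted p was under 0.05 with a fold change of at least 1.5. All 5 members passed the filter, Olig1 and Olig2 through Homo alone. By this rule 3 members were called higher in Homo, beside 3.65% of the 12046 genes tested, 1 was called lower, beside 2.67%, and Olig3 was not called, while 6.33% of all genes tested were called in either direction. The libraries of the 2 genotypes did not overlap for any of the 5, higher in Homo for 3 (31.7% of all genes tested) and lower in Homo for the others (30.3%). The median log2 fold change was 1.47 over the members and 0.01 over all genes tested. Because the members were picked from this contrast, nothing is read from these counts. In pooled sorted cells a lower value can come from fewer cells of a type or from less RNA per cell. A higher value can likewise come from more such cells or from more RNA per cell. The values here cannot tell these apart in either direction.

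**Figure D1:**
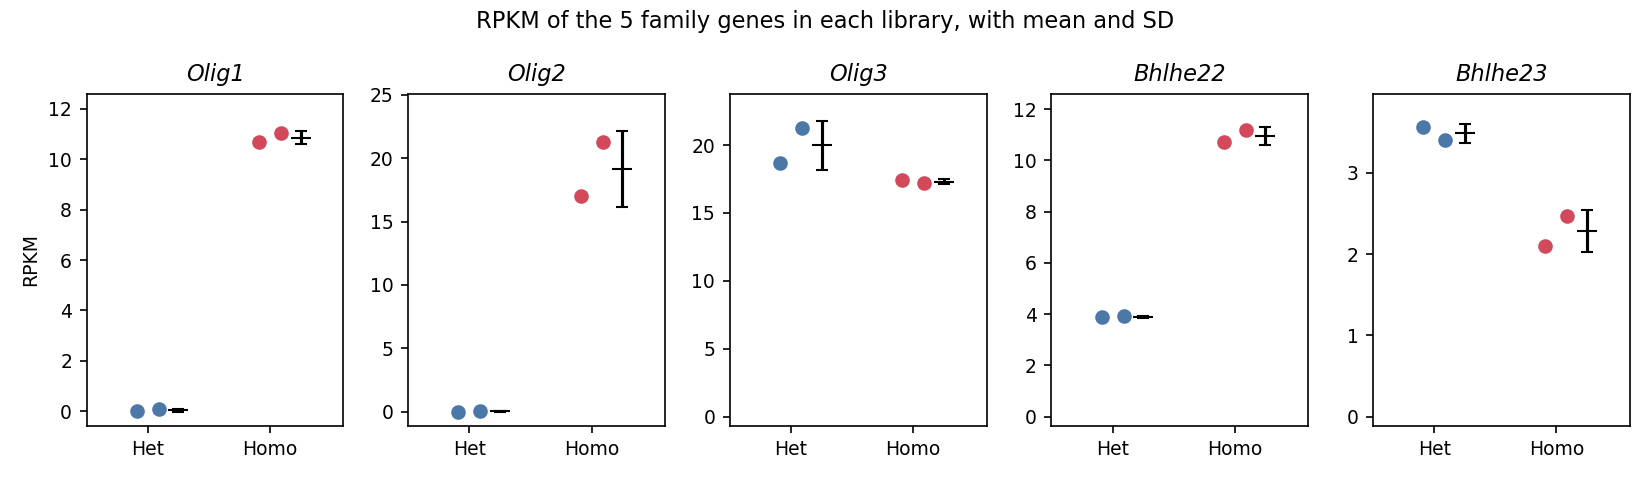
RPKM of each family gene (vertical axis, linear, a separate scale for each gene) in the Het and Homo libraries. Each point is 1 library and the black bar is the mean with its SD (n = 2). Olig1 and Olig2 lie near 0 in Het and between 10.7 and 21.3 RPKM in Homo, and the points of the genotypes are separate for every gene.

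Olig2 (gene ID 50913, chr16:91225550-91228677 in RefSeq on GRCm38) was listed at 0 RPKM in Het library 1 and 0.0224 RPKM in Het library 2, and at 17.0 and 21.3 RPKM in the Homo libraries. In reads this was 0 and 1 in Het against 675 and 709 in Homo. Both Homo libraries were thus far above both Het libraries, and the Het values lay below what 3 reads would give, 0.106 RPKM in Het library 1 and 0.0672 RPKM in Het library 2. The mean was 0.0112 ± 0.0158 RPKM in Het and 19.2 ± 2.99 RPKM in Homo (SD, n = 2 each). With 1 read in all in Het, the ratio of read rates, Homo over Het, was 1382 with a 95% exact interval from 248 to 54629, which covers counting error only. The fitted log2 fold change of 7.43 (SE 0.21) depends on the 0.1 RPKM added before the logarithm and understates the change of a gene so low in Het. By level Olig2 went from rank 17525 to rank 4420 of the 24421 genes.

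The 2 Homo libraries differed for Olig2 more than for any other member. Homo library 2 had 1.25 times the read rate of Homo library 1 (95% exact interval 1.12 to 1.39). On the log2(RPKM + 0.1) scale the gap was 0.32, and only 0.492% of the 8745 genes with at least 500 reads over the 2 Homo libraries differed by as much. For the other members the interval of this ratio included 1.

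Olig1 (gene ID 50914, chr16:91269769-91271939) followed its neighbour. It was listed at 0 and 0.0754 RPKM in Het, from 0 and 3 reads, and at 10.7 and 11.05 RPKM in Homo, from 377 and 328 reads. The Het values were at or below the level of 3 reads in each library, and the Homo values lay close together. The mean was 0.0377 ± 0.0533 RPKM in Het and 10.9 ± 0.258 RPKM in Homo (SD, n = 2 each). The ratio of read rates was 235 (95% exact interval 80.0 to 1141), resting on 3 Het reads, and the log2 fold change was 6.37 (SE 0.30). In Homo the RPKM of Olig1 was 0.627 of that of Olig2 in library 1 and 0.519 in library 2.

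Bhlhe22 (gene ID 59058, chr3:18054325-18057514) was present in both genotypes. It measured 3.87 and 3.92 RPKM in Het (143 and 229 reads) and 10.7 and 11.2 RPKM in Homo (556 and 489 reads). The libraries of a genotype lay close together, and both Homo values were above both Het values. Means were 3.90 ± 0.0313 RPKM in Het and 10.96 ± 0.344 RPKM in Homo (SD, n = 2 each), a log2 fold change of 1.47 (SE 0.07). The ratio of read rates was 2.81 (95% exact interval 2.49 to 3.17).

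Bhlhe23 (gene ID 140489, chr2:180774381-180776900) was the only member called lower in Homo, and it lay just past the fold threshold. It measured 3.57 and 3.40 RPKM in Het (104 and 157 reads) against 2.099 and 2.47 RPKM in Homo (86 and 85 reads). Both Homo libraries were below both Het libraries. The mean went from 3.48 ± 0.117 to 2.28 ± 0.259 RPKM (SD, n = 2 each), with a log2 fold change of -0.59 (SE 0.12) against a threshold of 0.585 in size. The ratio of read rates was 0.654 (95% exact interval 0.536 to 0.796). The call was lost when any 1 library was left out, with log2 fold changes from -0.70 to -0.48.

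Olig3 (gene ID 94222, chr10:19356539-19358604) was the most abundant member in Het and changed little. It measured 18.7 and 21.3 RPKM in Het (447 and 805 reads) and 17.4 and 17.2 RPKM in Homo (585 and 486 reads). The lower Het library lay above both Homo libraries, by less than the gap between the Het libraries themselves, whose ratio of read rates was 1.14 (95% exact interval 1.01 to 1.28). Means were 19.98 ± 1.82 RPKM in Het and 17.3 ± 0.154 RPKM in Homo (SD, n = 2 each), and the log2 fold change was -0.20 (SE 0.07). The ratio of read rates, Homo over Het, was 0.854 (95% exact interval 0.787 to 0.928).

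Per kilobase, the order of the levels changed with the genotype. In Het, Olig3 was the highest, followed by Bhlhe22 and Bhlhe23, whose library values did not overlap (3.87 to 3.92 and 3.40 to 3.57 RPKM), and then by Olig1 and Olig2, which at 3 reads and 1 read could not be ranked. In Homo, Olig2 and Olig3 headed the order and were not separated, since both Olig3 libraries (17.2 and 17.4 RPKM) fell between the Olig2 libraries (17.0 and 21.3 RPKM). Bhlhe22 and Olig1 came next and were not separated either (10.7 to 11.2 and 10.7 to 11.05 RPKM), and Bhlhe23 was the lowest. The summed RPKM of the 5 genes was 26.1 and 28.7 in Het and 58.0 and 63.2 in Homo. Olig3 made up 71.5% and 74.1% of that sum in Het and 30.1% and 27.2% in Homo, where Olig2 made up 29.4% and 33.7%.

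**Figure D2:**
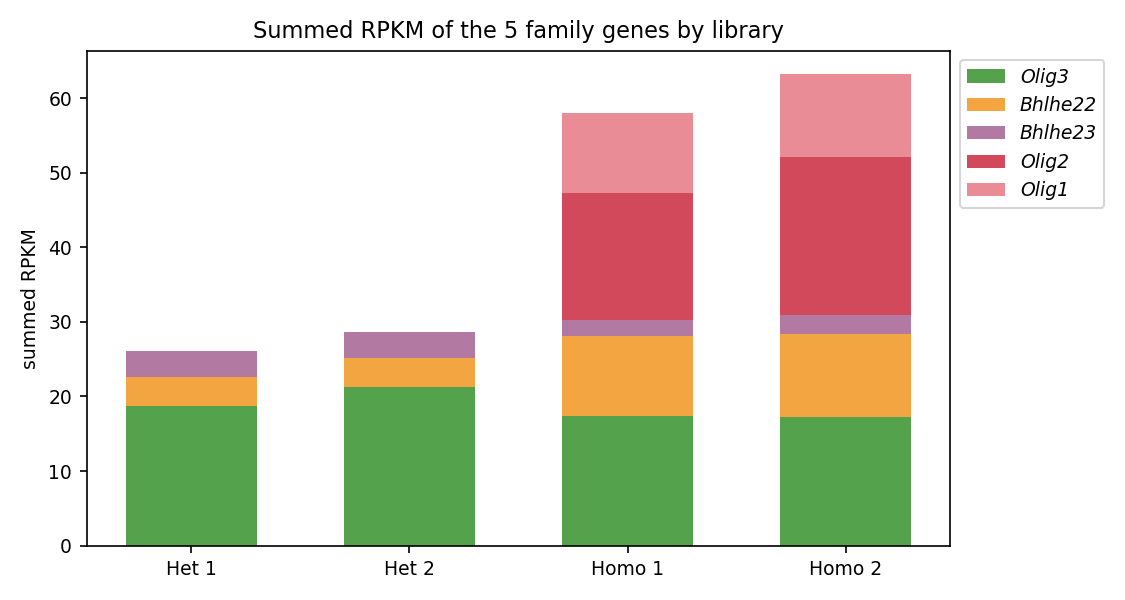
Summed RPKM of the 5 family genes in each library (vertical axis, linear from 0), with 1 stacked bar per library and 1 colour per gene. The bars reach 26.1 and 28.7 RPKM in the Het libraries and 58.0 and 63.2 RPKM in the Homo libraries, with Olig3 as the largest segment in both Het libraries.

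Here and below, rose and fell are written of called genes. Other genes of the pathway were taken from lists, 76 genes in all, of which 42 were tested. Of these, 17 were called higher in Homo and 5 lower, beside 3.65% and 2.67% of all genes tested. The same shares stand beside the counts of each list below. With any 1 library left out, 2 or 3 were called lower. The lists were drawn up with earlier results of these data in view, so their counts are descriptions. Among the partners, Ptf1a, a bHLH factor that specifies inhibitory neurons of the dorsal horn, was measured at 15.0 and 17.0 RPKM in Het and 58.6 and 54.4 RPKM in Homo and rose 3.53-fold (log2 fold change 1.81, SE 0.07, adjusted p = 2.77e-05). Its list held 5 tested genes, with 1 called higher, 0 called lower and a median log2 fold change near 0. The E proteins that bHLH factors pair with were not called, and their log2 fold changes were 0.06 for Tcf3, -0.04 for Tcf4 and -0.20 for Tcf12.

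All 4 Id genes, whose products bind E proteins without binding DNA, rose in Homo, with a median log2 fold change of 0.84. Id1 rose from 46.4 and 53.8 RPKM to 108 and 122 RPKM and Id4 from 60.0 and 61.3 RPKM to 126 and 123 RPKM. Id3 rose 1.57-fold (adjusted p = 0.00048) and Id2 rose by 0.59 on the log2 scale, at the threshold (adjusted p = 0.0016). Id2 was no longer called under 7 of the 13 alternative settings, among them without Het replicate 1 and without Homo replicate 2, and all 4 genes kept their direction in each.

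Of 8 tested bHLH activators of neurogenesis outside the family, 3 were called higher and 0 lower, with a median log2 fold change of 0.43. Neurod4, which acts in early differentiating neurons, rose 3.77-fold (adjusted p = 9.6e-06). Neurog1 rose from 9.85 and 12.5 RPKM to 35.3 and 42.0 RPKM and Neurog2 from 60.0 and 69.1 RPKM to 111 and 116 RPKM, both proneural factors. Atoh1, which marks the progenitors next to the roof plate, stayed under the filter at 0.280 to 0.783 RPKM. Among 6 tested Hes and Hey repressors, 3 were called higher and 0 lower (median log2 fold change 0.54). Hes1, named after its values were seen, was at 43.1 and 47.7 RPKM in Het and 36.9 and 37.3 RPKM in Homo, with an adjusted p of 0.022 and a fold under the threshold (log2 fold change -0.29). Hey1 rose 1.59-fold (adjusted p = 0.00053), and Hey2 and Heyl were low genes near the filter, with adjusted p of 0.048 and 0.026. The calls of both were lost when any 1 library was left out (adjusted p from 0.060 for Heyl to 0.16 for Hey2).

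The genes that accompany Olig2 in motor neurons were mostly at very low levels in both genotypes. Of 10 listed genes of motor neuron progenitors and motor neurons, only Nkx6-1 and Isl1 were above the filter. Nkx6-1, a ventral progenitor factor, was at 3.61 and 3.16 RPKM in Het and 3.87 and 4.20 RPKM in Homo and was not called (log2 fold change 0.25, SE 0.11, adjusted p = 0.16). Isl1, found in motor neurons and also in dorsal dI3 and sensory neurons, rose from 1.71 and 1.66 RPKM to 7.84 and 7.38 RPKM (adjusted p = 3.8e-05). Mnx1, the defining motor neuron factor, was at 0.475 and 0.112 RPKM in Het and 0.169 and 0.151 RPKM in Homo, and Chat, which makes acetylcholine, was at 0.0219 to 0.175 RPKM in the 4 libraries.

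In the oligodendrocyte list, 4 of 9 genes were tested, 1 rose and 0 fell, with a median log2 fold change of 0.42. Mbp, whose products include a myelin component, rose from 2.68 and 2.22 RPKM to 5.14 and 5.30 RPKM (adjusted p = 0.0019). Reads over any exon of a gene were counted, so this level does not tell its transcripts apart. Sox10, the defining factor of the lineage and of neural crest, was under the filter. It was at 0.255 and 0.603 RPKM in Het and 0.680 and 0.782 RPKM in Homo. Pdgfra and Gpr17, named after their values were seen, were also under the filter and differed in direction. Pdgfra was at 0.834 and 0.656 RPKM in Het and 0.420 and 0.380 RPKM in Homo. Gpr17 was at 0.266 and 0.399 RPKM in Het and 0.403 and 0.507 RPKM in Homo.

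Genes listed for the dorsal-most progenitors and dI1 to dI3 neurons moved both ways. Olig3 is expressed in this region, but the list is not confined to it, since the study places TLX1/3 in dI3 and dI5 neurons. Of 10 tested, 4 rose and 4 fell, with a median log2 fold change of -0.22. Msx1, Msx2 and Wnt1, which act in the dorsal midline and its flanking progenitors, fell by factors of 1.64, 1.67 and 1.92, and Foxd3, of neural crest and early interneurons, fell from 10.1 and 12.8 RPKM to 4.20 and 4.25 RPKM. The calls of Msx1 and Wnt1 were lost when any 1 library was left out (adjusted p from 0.052 to 0.083 for Msx1 and from 0.053 to 0.077 for Wnt1). Tlx3, which specifies excitatory neurons, rose from 4.63 and 5.63 RPKM to 86.2 and 94.1 RPKM, Pou4f1 (Brn3a) rose 3.01-fold and Prrxl1 (Drg11) rose 6.02-fold. Lhx2, of dI1 neurons, rose from 0.643 and 0.658 RPKM to 1.37 and 1.53 RPKM (adjusted p = 0.023). Its call was lost without Het replicate 1, Homo replicate 1 or Homo replicate 2. Barhl1, Barhl2 and Lhx9 of the same list, named after their values were seen, were under the filter. Barhl1 was lower in Homo, at 0.538 and 0.473 RPKM in Het and 0.383 and 0.436 RPKM in Homo. For Barhl2 and Lhx9 the libraries of the genotypes overlapped.

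Beside Bhlhe22, its partner Prdm8 was at 13.5 and 13.1 RPKM in Het and 13.3 and 13.4 RPKM in Homo, a log2 fold change of 0.01 (SE 0.06), and its target Cdh11, a cadherin, was not called (log2 fold change -0.31, SE 0.06, adjusted p = 0.013). In the list of dI6, V1 and V2 interneurons, of which Bhlhe22 marks some, only Dmrt3 was tested, and it fell from 2.49 and 2.56 RPKM to 1.34 and 0.917 RPKM (adjusted p = 0.013), a call that was lost without Het replicate 1 (adjusted p = 0.063), Het replicate 2 (0.077) or Homo replicate 2 (0.056). En1, the V1 factor, was under the filter, at 0.102 and 0.214 RPKM in Het and 0.771 and 1.03 RPKM in Homo.

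**Figure D3:**
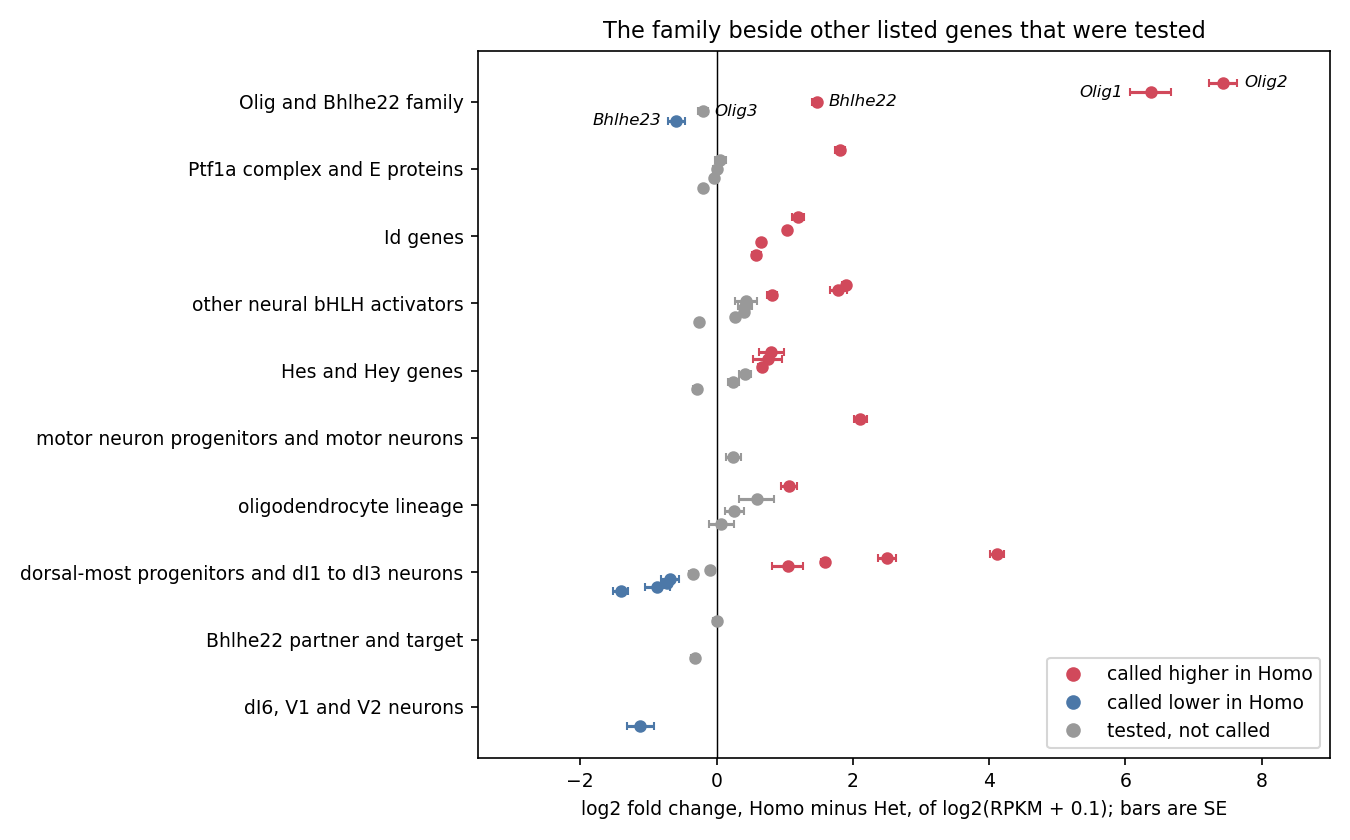
Log2 fold change, Homo minus Het, of log2(RPKM + 0.1) (horizontal axis) for the family and for the tested genes of each list (rows), with SE as bars and colour for the call. Olig2 and Olig1 lie at 7.43 and 6.37, to the right of every listed gene, of which Tlx3 at 4.11 is the farthest, and Bhlhe23 and Olig3 lie left of 0.

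Markers of other cells that a sort could carry along were summed by list. The 8 floor plate and p3 markers summed to 1.29 to 1.30 RPKM in Het and 2.60 to 2.68 RPKM in Homo, with 0 called and with Nkx2-9 at 0 in 3 of the 4 libraries, Foxa2 at 0 to 0.123 RPKM and Shh at 0.130 to 0.439 RPKM. Spon1 and Sim1, named after their values were seen, made up most of that sum. Spon1 was at 0.701 and 0.682 RPKM in Het and 1.21 and 1.079 RPKM in Homo (adjusted p = 0.11, and called higher by limma voom and without the trend), and Sim1, under the filter, was at 0.282 and 0.260 RPKM in Het and 0.736 and 0.706 RPKM in Homo. The 8 markers of dorsal root ganglion and neural crest summed to 5.26 to 5.27 RPKM in Het and 10.5 to 11.7 RPKM in Homo. Of them, 2 were tested, 1 rose and 0 fell. The 6 pan-neuronal markers summed to 1627 to 1673 RPKM in Het and 1994 to 2075 RPKM in Homo, with Stmn2 called higher. Its call was lost in 3 settings, without Homo replicate 1 and with quantile normalization, where the fold was under the threshold (adjusted p = 0.011 and 0.00055), and without a filter (0.062). Sums of the 6 erythroid genes were 47.2 to 47.9 and 48.6 to 49.7 RPKM, with Hba-a1 listed at 0 in every library. Sums of the 5 endothelial genes were 2.099 to 2.90 and 2.70 to 3.15 RPKM, and those of the 6 mesenchymal genes were 4.96 to 5.88 and 5.598 to 5.67 RPKM, with Pdgfrb called higher, a call that was lost in 3 settings, without Homo replicate 1 (adjusted p = 0.076), without Homo replicate 2 (0.092) and without a filter (0.15). In the dorsal lineage itself 3 of 11 genes rose and 5 fell, among them Pax2, of inhibitory neurons, which fell from 106 and 119 RPKM to 17.7 and 18.6 RPKM. The part of the floor plate, sensory and neuronal markers in the levels of Olig1, Olig2 and Bhlhe22 was not tested.

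The genes around each member were examined to see whether the difference extended along the chromosome. Within 500 kb of a member start lay 63 other genes of the table, of which 36 were tested, 3 were called higher in Homo and 0 lower, beside 3.65% and 2.67% of all genes tested. Olig2 and Olig1 stand 44.2 kb apart, start to start, in the same orientation. Of the 21 other genes around Olig2, 16 were tested and 0 were called, and their log2 fold changes ran from -0.26 to 0.36. The closest on the downstream side was Ifnar2, an interferon receptor, 147 kb from the Olig2 start, with a log2 fold change of 0.13 (SE 0.10), and the closest on the upstream side was 4932438H23Rik, under the filter at 0.0229 to 0.0817 RPKM. Eva1c, 399 kb upstream of the Olig2 start and named after its values were seen, was under the filter, at 0.0403 and 0.0510 RPKM in Het (1 and 2 reads) and 0.345 and 0.410 RPKM in Homo (12 reads in each library), so its genotypes did not overlap.

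For Olig3, 1 of 5 neighbours was tested, the interferon gamma receptor Ifngr1, and it was not called (log2 fold change 0.12, SE 0.10), while Gm20139 on the other side was under the filter. Around Bhlhe22, 2 of 5 neighbours were tested and 0 were called. The genes next to it were under the filter. Cypt12 was listed at 0 in every library, and Cyp7b1 was at 0.279 and 0.202 RPKM in Het (7 and 8 reads) and 0.767 and 0.540 RPKM in Homo (27 and 16 reads), without overlap. Around Bhlhe23, 15 of 30 neighbours were tested and 3 were called higher, although Bhlhe23 itself was lower. Chrna4, a nicotinic acetylcholine receptor subunit 267 kb from the Bhlhe23 start, rose from 45.2 and 44.7 RPKM to 134 and 141 RPKM (adjusted p = 8.6e-06). Nkain4 rose 0.61 and Birc7 rose 1.30 on the log2 scale. Without Homo replicate 2 neither was called and 1 neighbour, Chrna4, was left, and Birc7 was not called without Homo replicate 1 either (adjusted p = 0.056). The gene next to Bhlhe23 on the downstream side, Slc17a9, was under the filter. On the upstream side, Mir124a-3 had 1 recovered read in each library, too few to show a difference, and was not called.

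**Figure D4:**
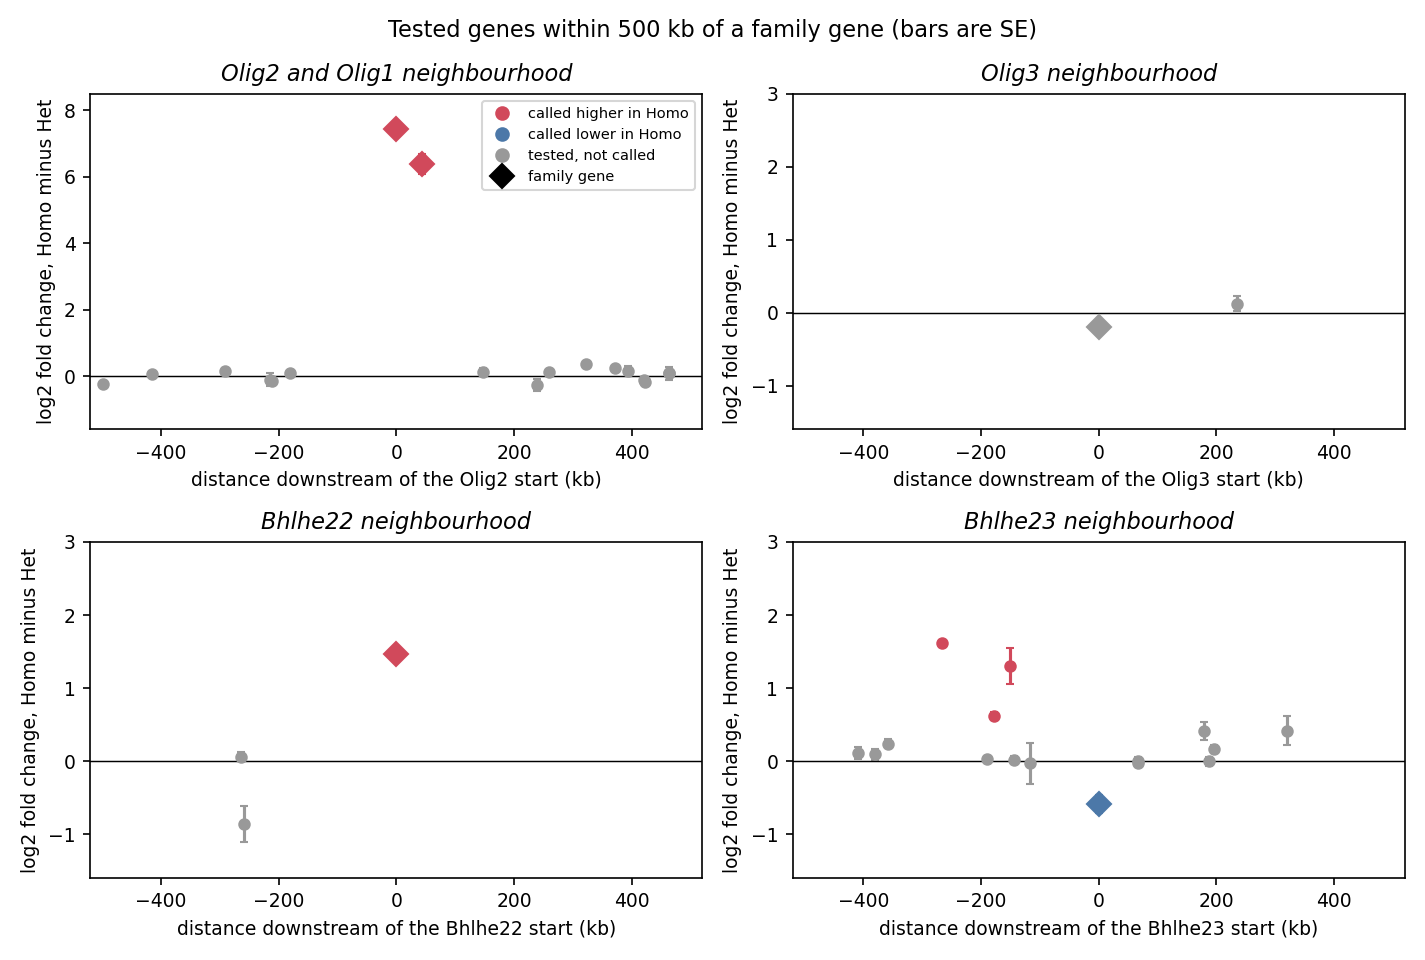
Log2 fold change, Homo minus Het, of log2(RPKM + 0.1) (vertical axis, with a wider range for Olig2 and Olig1) against distance downstream of the start of a family gene in kb (horizontal axis) for tested genes within 500 kb, with SE as bars, diamonds for family genes and colour for the call. Around Olig2 and Olig1 the other genes lie between -0.26 and 0.36, and the 3 genes called higher near Bhlhe23 all lie upstream of it.

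The genes whose levels in the 4 libraries were closest to those of a member, by Euclidean distance of log2(RPKM + 0.1) over the 4 libraries among 11726 genes, were taken as a description of likeness. Because the distance covers both genotypes, a direction shared with the member follows from the choice and is no separate result. For Olig1 the nearest was Olig2, at a distance of 1.26, and for Olig2 it was Olig1. Pnmt, which makes adrenaline, was second for both, at distances of 2.11 and 3.32, with 0 and 0.246 RPKM in Het and 3.46 and 5.598 RPKM in Homo. The third was Nms, a neuropeptide gene, for Olig1 (2.63) and Prdm12, a zinc finger gene of the Prdm13 family, for Olig2 (3.80). Prdm12 was at 0.594 and 0.596 RPKM in Het and 13.4 and 15.4 RPKM in Homo. Pnmt was no longer called without Homo replicate 2 (adjusted p = 0.066).

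The other members had closer matches, again alike in direction by the way they were picked. For Bhlhe22 these were Chrnb4, a nicotinic receptor subunit (0.20), Scn3b, a sodium channel subunit (0.21), and Lgr5, a receptor of the Wnt pathway (0.24), and all of them rose in Homo. Chrnb4 was at 4.14 and 4.29 RPKM in Het and 10.9 and 10.3 RPKM in Homo. For Bhlhe23 they were Fbxo32 (0.13), Sema3c, a secreted guidance factor (0.18), and Kcnj10, a potassium channel (0.19), which all fell, with log2 fold changes of -0.60, -0.70 and -0.62. The calls of Fbxo32 and Kcnj10 were lost when any 1 library was left out (adjusted p from 0.056 to 0.13), and that of Sema3c without Het replicate 1, Homo replicate 1 or Homo replicate 2 (0.076 to 0.084). For Olig3 they were Rnf216 (0.10), Zfp687 (0.11) and Bahcc1 (0.11), none of which was called.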

How the data were processed

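GFP+ cells were sorted from E11.5 neural tubes of Prdm13 GFP/+ (Het) and GFP/GFP (Homo) embryos, and polyA RNA was sequenced. Per the labels and the study's methods, the authors mapped reads with TopHat2 2.1.0 to mm10 with RefSeq genes, counted reads over exons with featureCounts and applied TMM scaling in edgeR 3.6.8. The deposited RPKM values of 24421 genes were used as given, and no count table was used. Groups came from the labels.

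Whole reads were recovered from the RPKM steps (99.9% of genes above 0). They summed to 12296642 for Het 1, 19548574 for Het 2, 17420680 for Homo 1 and 14735966 for Homo 2, sums that may be too high. Intervals are exact (Clopper-Pearson) and cover counting error only. limma 3.58.1 in R 4.3.3 was fitted with an empirical Bayes trend to log2(RPKM + 0.1) over 12046 genes, those whose mean in Het or in Homo was 1 RPKM or more, with two-sided p-values and Benjamini-Hochberg adjustment over all of them. Calls required an adjusted p below 0.05 together with a difference of 1.5-fold or more. A fold on this scale understates low genes. A permutation test of 2 against 2 libraries cannot go below p = 0.333 and was not used. Both steps were tested on simulated data. The simulated reads for the recovery used the solved exon lengths, so that test does not check those lengths.

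The members and lists were chosen with earlier results of these data known. Named genes were the members, every called gene of a list or within 500 kb of a member, genes next to a member, the defining genes of each list, of which not all are reported here, and the 3 genes nearest in pattern with at least 20 reads in a library, microRNA and small nucleolar RNA genes left out. Alternatives covered the pseudocount, filter, scaling, prior, replicate block, each library left out and, added after seeing the data, limma voom on the recovered reads.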

Additional observations from a re-analysis of the deposited data

How the results depend on the processing

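Under the 13 alternatives no direction of a member, or of a named gene that was called, reversed. A change of sign in a named gene that was never called was not counted. The log2 fold change of Olig1 was 3.52 with a pseudocount of 1, 8.54 with 0.01 and 7.89 with limma voom on the recovered reads, which was added after seeing the data. That of Olig2 was 4.31, 10.05 and 9.55 in the same order, since the fitted value of a gene near 0 is set by the added constant. With a pseudocount of 1, Bhlhe22 was at 1.29 and Bhlhe23 at -0.45. Bhlhe22 was called under all 13 alternatives, Olig1 and Olig2 under 12 (all but no filter), Olig3 under 0 and Bhlhe23 under 7.

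Genes called higher and lower in Homo numbered 440 and 322, 30 and 14 without a filter, and 449 and 359 with limma voom. Leaving out each library gave 258 to 437 higher and 212 to 266 lower, the lowest of both without Homo replicate 2, with the lone library of a genotype assumed to vary like the other genotype. Of the listed related genes, 17 were higher and 5 lower, against 2 and 0 without a filter (more low genes tested), 3 lower with a pseudocount of 1, and 2 to 3 lower with a library left out. Of the genes near a member, 3 were higher and 0 lower. Without a filter 1 was higher, and without Homo replicate 2 it was 1 (the range over left-out libraries was 1 to 3 higher and 0 to 1 lower). With filtering in both libraries, median ratio scaling, a pseudocount of 1 and the replicate block, 1 was lower, Mir124a-2. The cause was not tested.

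Replicate numbers did not pair the libraries (correlation of deviations 0.047), and the replicate block gave 459 higher and 342 lower and kept the call of every member. Over 49 named genes outside the family, of which 43 were called, 97 of 637 gene and setting pairs lost the call, most without a filter or with a library left out. Olig1 and Olig2 rest on 3 and 1 reads in Het, so the depth bounds their ratio loosely.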
